A study of Mus musculus with 16 samples.

Results

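Skeletal muscle of mice fasted for 24 h was compared with skeletal muscle of fed mice by short-read RNA-Seq, gene by gene. The comparison rests on 2 of the 16 libraries of the series, which covers 8 tissues, and its libraries were taken by their sample labels (Muscle_Fed and Muscle_Fasting). The mice were male C57BL/6, bought at 12 weeks of age, fed chow without limit in the fed group and given no food for 24 h in the fasting group. No allele or drug differed between the groups. Muscle tissue from 3 mice was combined equally for each treatment before RNA was extracted, so each condition is 1 library, the spread between animals is lost, and no difference below has a replicate check. Which muscle was dissected is not given in the sources used here, and the other 7 tissues came from the same mice.

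The identity of the tissue was checked with Myh4 (the fastest adult myosin heavy chain), Acta1 (skeletal alpha-actin) and Ttn (titin, the spring of the sarcomere). Myh4 measured 69875 CPM (counts per 1000000 counts of the library) in fed and 73319 CPM in fasting muscle, Acta1 24269 and 22382 CPM, and Ttn 171767 and 169422 CPM. These 3 genes held 26.6% of the counts of the fed and 26.5% of those of the fasting library. In the other 14 libraries Myh4 and Acta1 reached at most 1272 and 415 CPM, both in fed brown adipose tissue, and Ttn at most 73986 CPM, in fed heart.

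During a fast, muscle stops taking up most of its glucose and burns fatty acids instead, and its proteins are broken down to supply amino acids to the liver. Low insulin lets FoxO transcription factors enter the nucleus, and high glucocorticoid hormone activates its receptor. Both switch on genes for ubiquitin ligases, which tag muscle proteins for the proteasome, and for autophagy, which delivers cell contents to the lysosome. Pyruvate dehydrogenase, the gate by which glucose carbon enters the mitochondrial cycle, is closed by kinases of the Pdk family.

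The fed library held 24076345 counts and the fasting library 30937172, so that 3 counts, taken as the floor, correspond to 0.125 and 0.0970 CPM. Of the genes, 13701 reached 1 CPM in at least 1 of both libraries and were tested. A gene was called, and is said below to have risen or fallen, where its log2 fold change of (CPM + 0.01) passed 0.5 in size with an unadjusted p under 0.01 in a two-sided Fisher's exact test, on the library totals and again on totals scaled by edgeR's TMM factors. This test compares the libraries and not the conditions. By this rule 1068 genes rose, or 7.80% of those tested, and 1469 fell, or 10.7%. Changes of more than 1 on the log2 scale with both scalings were found for 387 of the risen and 544 of the fallen genes, and changes of more than 2 for 67 and 70.

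The median log2 fold change over all tested genes was -0.14 on library totals, -0.01 after TMM scaling and 0.03 by the size factors of DESeq2. The values below are on library totals, so a gene or list is to be read against -0.14. Adding 0.14 gives the TMM value except for genes near 0 CPM. Counts of called members in a list are likewise to be read against the shares of all tested genes, 7.80% risen and 10.7% fallen. Risen genes were 42.1% of those called. This share was 32.3% (1068 up, 2241 down) on library totals alone, 52.2% (1607 up, 1469 down) with TMM factors alone and 57.5% (1766 up, 1305 down) with size factors alone, so no balance between the directions can be read from it. The same counts tested with an assumed biological coefficient of variation, by edgeR's exact test at an unadjusted p under 0.01 and the same fold, left 361 risen and 295 fallen genes at a coefficient of 0.2 and 49 and 28 at 0.4.

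**Figure D1:**
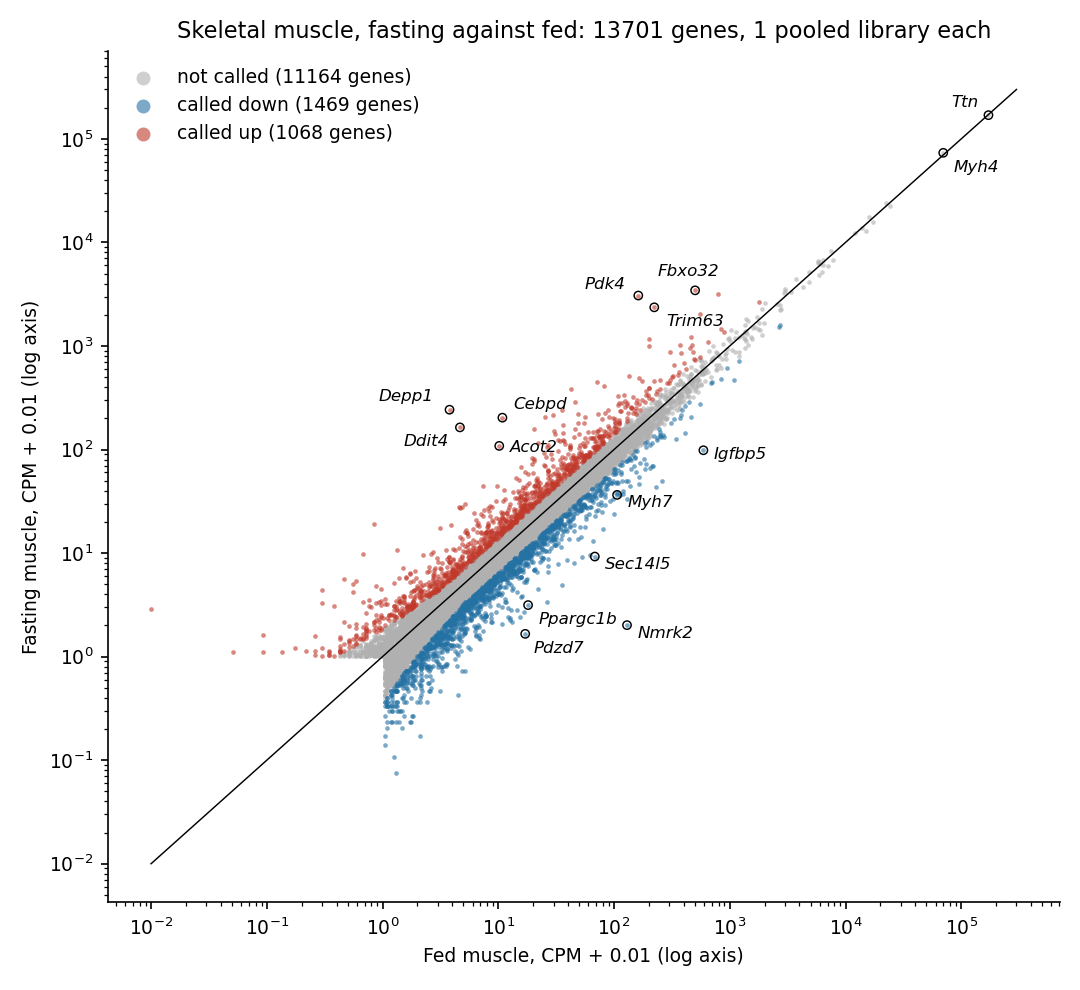
Scatter plot of 13701 genes with the CPM of the fed muscle library on the x axis and that of the fasting library on the y axis, both on log axes after adding 0.01, with called genes in colour. Points above the diagonal line of equality are higher in fasting, and Depp1, Ddit4, Cebpd, Pdk4 and Trim63 lie farthest above it among the labelled genes, while Nmrk2 lies farthest below.

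The 12 largest rises among genes with at least 10 CPM lay between 2.86 and 6.00 on the log2 scale. Depp1, a FoxO target that affects autophagy, stood first with 6.00 (3.78 CPM fed, 242 CPM fasting). Ddit4, also called REDD1, restrains the growth kinase mTORC1 and was raised by 5.13 (4.65 CPM fed, 164 CPM fasting). Both had under 5 CPM in the fed library and more than 100 in the fasting library. Pdk4, the kinase that closes pyruvate dehydrogenase, rose by 4.24 (counting SE 0.02), from 162 CPM (95% exact Poisson interval 157 to 167) to 3069 CPM (3049.7 to 3089). Trim63, the ubiquitin ligase MuRF1 that attaches to the sarcomere, rose by 3.41 (counting SE 0.02), from 223 CPM (217 to 229) to 2362 CPM (2345 to 2379). These intervals cover counting error only, and at such depth they are far narrower than the differences.

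Cebpd, a transcription factor that glucocorticoids induce, went up by 4.23 (10.8 to 203 CPM) and Acot2, a mitochondrial acyl-CoA thioesterase, by 3.41 (10.2 to 108 CPM). Arrdc3 and Arrdc2, arrestin-domain proteins of membrane traffic related to Txnip, rose together by 3.16 and 3.02. Sesn1, a sestrin that holds back mTORC1 when leucine is scarce, gained 2.97 (20.3 to 159 CPM), and the membrane protein gene Tmem140 2.86 (29.7 to 215 CPM). The remaining 2 of the 12 were the predicted genes Gm43797 (4.51, 0.831 to 19.1 CPM) and AC154912.3 (2.99, 1.33 to 10.6 CPM), both with few counts in the fed library (20 to 591 and 32 to 329 counts).

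Levels of different genes can be set side by side only per transcript length, as TPM. Ranked by TPM within each library, Pdk4 moved from rank 594 to 28, Trim63 from 335 to 30, Fbxo32 from 367 to 46 and Glul from 516 to 88. Depp1 moved from rank 7065 to 129. Pdk4, Trim63 and Fbxo32 were thus among the 50 most abundant transcripts of the fasting library and not of the fed library.

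The 12 largest falls lay between -6.01 and -2.52. Nmrk2, a muscle kinase that makes NAD from nicotinamide riboside, fell by 6.01 on the log2 scale (counting SE 0.19), from 129 CPM (125 to 134) to 2.0 CPM (1.54 to 2.57). Igfbp5, which binds insulin-like growth factors outside the cell, went from 591 to 98.4 CPM (-2.59). Aqp4, the water channel of the fast-fibre membrane, changed by -2.69 (62.4 to 9.63 CPM), and Ppargc1b, the PGC-1beta coactivator of mitochondrial genes, by -2.52 (18.1 to 3.14 CPM). All of these were far outside the counting error of both libraries.

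Among the other falls, Pdzd7 (a PDZ scaffold protein) changed by -3.36, Fam78a by -2.95, Sec14l5 (a lipid-transfer domain protein) by -2.88 and Lrrc38 (an accessory subunit of a potassium channel) by -2.84. Cited4, a transcriptional coregulator, was at -2.67 and Tnfaip2, a gene that inflammatory signals induce, at -2.52. The unnamed transcripts D430041D05Rik and AC122818.4 fell by 2.63 and 2.61. Exons of 7 of these 24 genes overlap exons of another gene, on the opposite strand for Tmem140, Cebpd, Nmrk2, Pdzd7, D430041D05Rik and Tnfaip2 and on both strands for Fam78a. Per the study's methods the libraries were strand-specific, but the strand setting of the counting is not given in the sources used here. Reads of such partners may therefore be mixed. Of the 372 genes the naming rule selects, 120 share exons with another gene.

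Promoter windows were searched for the letters GTAAACA, the core that forkhead factors such as FoxO bind, on both strands. Windows run from 250 bases before to 50 after a start site and come from RefSeq (GRCm38.p6), with 925 windows for 732 of the risen, 1373 for 1033 of the fallen and 12592 for 9807 of all tested genes. GTAAACA was present in 4.22% of the windows of risen genes, 1.75% of those of fallen genes and 2.60% of all windows. AGAACA, 1 arm of the element that the glucocorticoid receptor binds, was present in 11.9%, 12.7% and 12.7%, and the E-box CACGTG in 11.4%, 7.50% and 9.85%. A match is a run of letters and not a site known to be bound. Of the 105 risen genes that the naming rule selects, 86 had a window and at least 7 held GTAAACA in one: Trim63, Sesn1, Tmem140, Kctd20, Junb, Klf9 and Txnip. The count of 7 left out the windows of a single chromosome, so it is a minimum. The windows of Fbxo32, Pdk4, Depp1 and Ddit4 do not hold these 7 letters.

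The windows of the 3 genes among the 12 largest rises, and that of Kctd20, described with the other tissues below, are printed 5′ to 3′ on the gene's strand, with GTAAACA or its reverse complement in capitals. The first base of the match lies 194 bases before the start in Trim63 (chr4:134314870-134315169, plus strand), 22 bases after it in 1 of 2 windows of Sesn1 (chr10:41810324-41810623, plus), 116 and 5 bases before it in Tmem140 (chr6:34862896-34863195, plus), and 127 bases before it in 1 of 3 windows of Kctd20 (chr17:28952966-28953265, plus).
Trim63: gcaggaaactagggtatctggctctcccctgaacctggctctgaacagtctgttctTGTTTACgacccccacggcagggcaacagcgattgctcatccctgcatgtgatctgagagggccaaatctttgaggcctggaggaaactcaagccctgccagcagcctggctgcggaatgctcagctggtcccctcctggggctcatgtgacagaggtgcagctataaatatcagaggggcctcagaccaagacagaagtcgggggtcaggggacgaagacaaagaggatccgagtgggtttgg
Sesn1: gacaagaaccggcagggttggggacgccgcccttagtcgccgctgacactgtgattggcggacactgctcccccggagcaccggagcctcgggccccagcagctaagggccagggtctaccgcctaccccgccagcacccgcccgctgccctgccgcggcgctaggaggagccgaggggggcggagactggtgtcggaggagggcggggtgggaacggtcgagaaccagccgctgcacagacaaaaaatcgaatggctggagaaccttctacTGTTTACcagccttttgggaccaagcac
Tmem140: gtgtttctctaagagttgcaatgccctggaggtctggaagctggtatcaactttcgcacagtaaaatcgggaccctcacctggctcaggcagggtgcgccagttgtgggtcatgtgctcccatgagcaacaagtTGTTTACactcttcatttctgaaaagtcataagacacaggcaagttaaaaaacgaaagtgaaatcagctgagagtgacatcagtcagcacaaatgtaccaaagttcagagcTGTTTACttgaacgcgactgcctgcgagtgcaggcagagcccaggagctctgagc
Kctd20: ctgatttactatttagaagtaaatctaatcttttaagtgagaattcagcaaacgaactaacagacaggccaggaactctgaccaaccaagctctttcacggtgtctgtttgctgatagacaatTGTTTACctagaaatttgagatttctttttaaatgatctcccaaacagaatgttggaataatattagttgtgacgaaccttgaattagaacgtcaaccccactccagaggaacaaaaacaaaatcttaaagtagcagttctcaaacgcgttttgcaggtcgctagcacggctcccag

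Muscle ubiquitin ligases known from atrophy showed 7 rises and 0 falls among 14 members, with a median log2 fold change of 0.41. Trim63 (GRCm38 chr4:134315120-134329629) and Fbxo32 (chr15:58175879-58214932), the atrogin-1 subunit that brings muscle proteins to a cullin ligase, had the largest rises. Fbxo32 measured 502 CPM fed and 3445 CPM fasting, a change of 2.78 (counting SE 0.01). The further rises were Cblb (1.24), which tags the insulin signalling adaptor Irs1, Fbxo30 (0.98), Fbxo21 (0.84), Fbxo31 (0.69) and Ubr2 (0.67), a ligase of the N-degron pathway. Other ligases of the list did not pass the threshold, among them Asb2 (769 to 850.2 CPM), Nedd4 (701 to 724 CPM) and Fbxo40 (473 to 425 CPM). Klhl38, a kelch protein gene that lies near Fbxo32 on chromosome 15 and is named here after its values were seen, rose by 2.75 (35.8 to 241 CPM).

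Proteasome subunits lay almost all on the side of fasting. Of 31 measured, 30 had positive log2 fold changes and 1 a negative one, 9 rose and 0 fell, and the median was 0.41. Psmd11, a subunit of the 19S cap, led with 1.07 (49.6 to 104 CPM), followed by the core subunit Psma5 (0.78), the ubiquitin receptor Psmd4 (0.74), the ATPase Psmc2 (0.69) and Psmd8 (0.69). Of the 9 risen subunits, 8 belong to the cap and 1 to the core. With TMM factors alone 17 of the 31 passed. The catalytic subunits were among the members that changed least (Psmb5 0.04, Psmb6 0.03, Psmb7 -0.02), and the immunoproteasome subunit Psmb8 fell (-0.91).

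Of 16 other ubiquitin and proteasome genes, 6 rose and 0 fell. Ube4a, a factor that lengthens ubiquitin chains, increased by 1.79 (45.6 to 158 CPM). Nploc4 (0.95) and Ufd1 (0.51), partners of the unfolding ATPase Vcp, rose, and Vcp itself measured 278 to 384 CPM. Ubb and Usp14 also rose (0.66 and 0.54). Ubb is built of ubiquitin repeats that other ubiquitin genes share, so the assignment of its reads is uncertain.

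**Figure D2:**
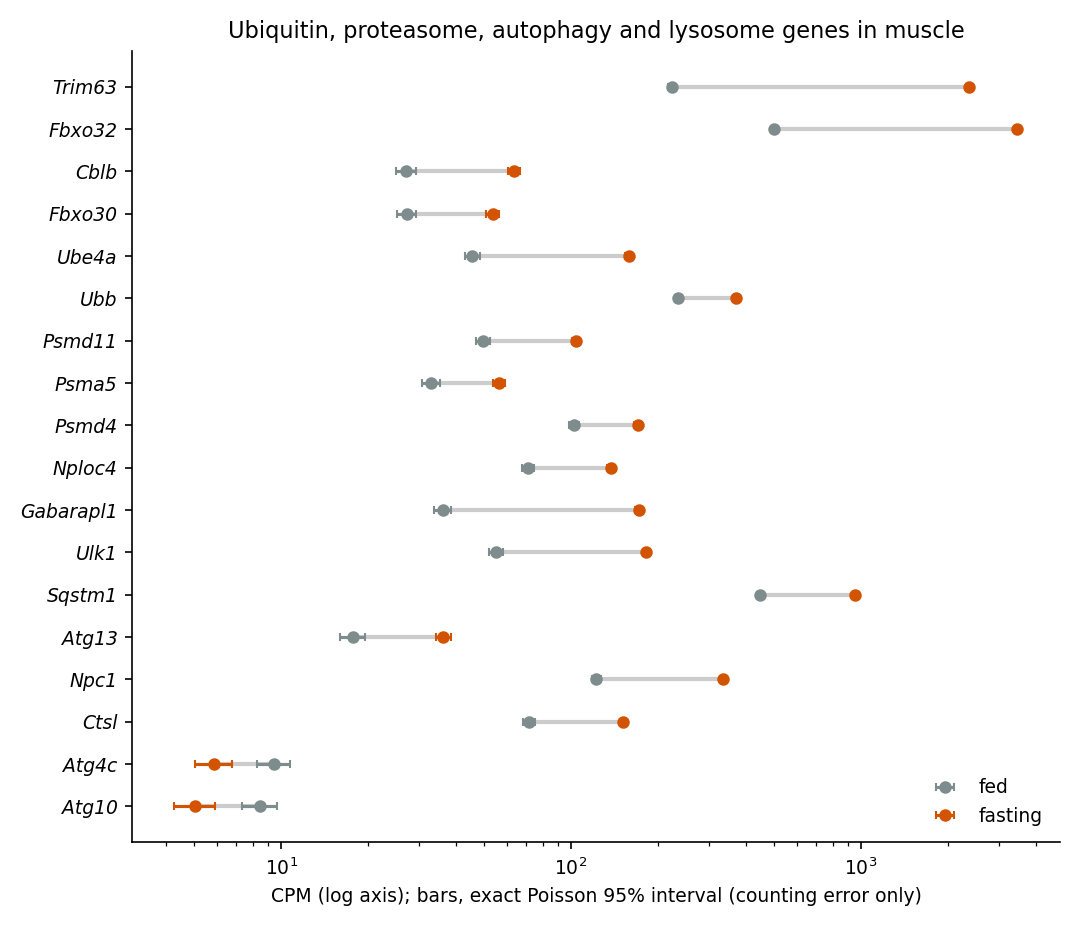
CPM of 18 genes of the ubiquitin, proteasome, autophagy and lysosome systems in the fed (grey) and fasting (orange) muscle library on a log axis, with exact Poisson 95% intervals for counting error. Trim63 and Fbxo32 have the longest connecting lines, and Atg4c and Atg10 are the 2 genes shown whose fasting point lies left of the fed one.

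Autophagy genes had 9 rises and 2 falls among 31 and a median of 0.10, where 7.80% of all tested genes rose and 10.7% fell. Gabarapl1, which coats the forming autophagosome, rose by 2.24 (36.1 to 171 CPM). Ulk1, the kinase that starts autophagy, rose by 1.72 (55.1 to 182 CPM), and its partner Atg13 by 1.04. The cargo receptor Sqstm1, or p62, rose by 1.09 (449 to 957 CPM). Atg14, Bnip3, Map1lc3b, Wipi2 and Wipi1 followed with 1.0, 0.96, 0.70, 0.63 and 0.62. Conjugation enzymes were not among the risen genes: Atg5 was at -0.23, Atg7 at 0.23 and Atg3 at -0.19, while Atg4c and Atg10 fell (-0.69 and -0.74). Zfyve1, which marks the membranes where autophagosomes form and is named after its values were seen, rose by 1.76 (36.2 to 122 CPM).

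Lysosome genes held 4 rises and 0 falls among 20 (median 0.18). The cholesterol exporter Npc1 rose by 1.46, the protease Ctsl by 1.09, the proton pump subunit Atp6v1h by 0.96 and acid alpha-glucosidase, Gaa, by 0.58. The proteases Ctsd (235 to 270.3 CPM) and Ctsb (218 to 199 CPM) did not pass the threshold.

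**Figure D3:**
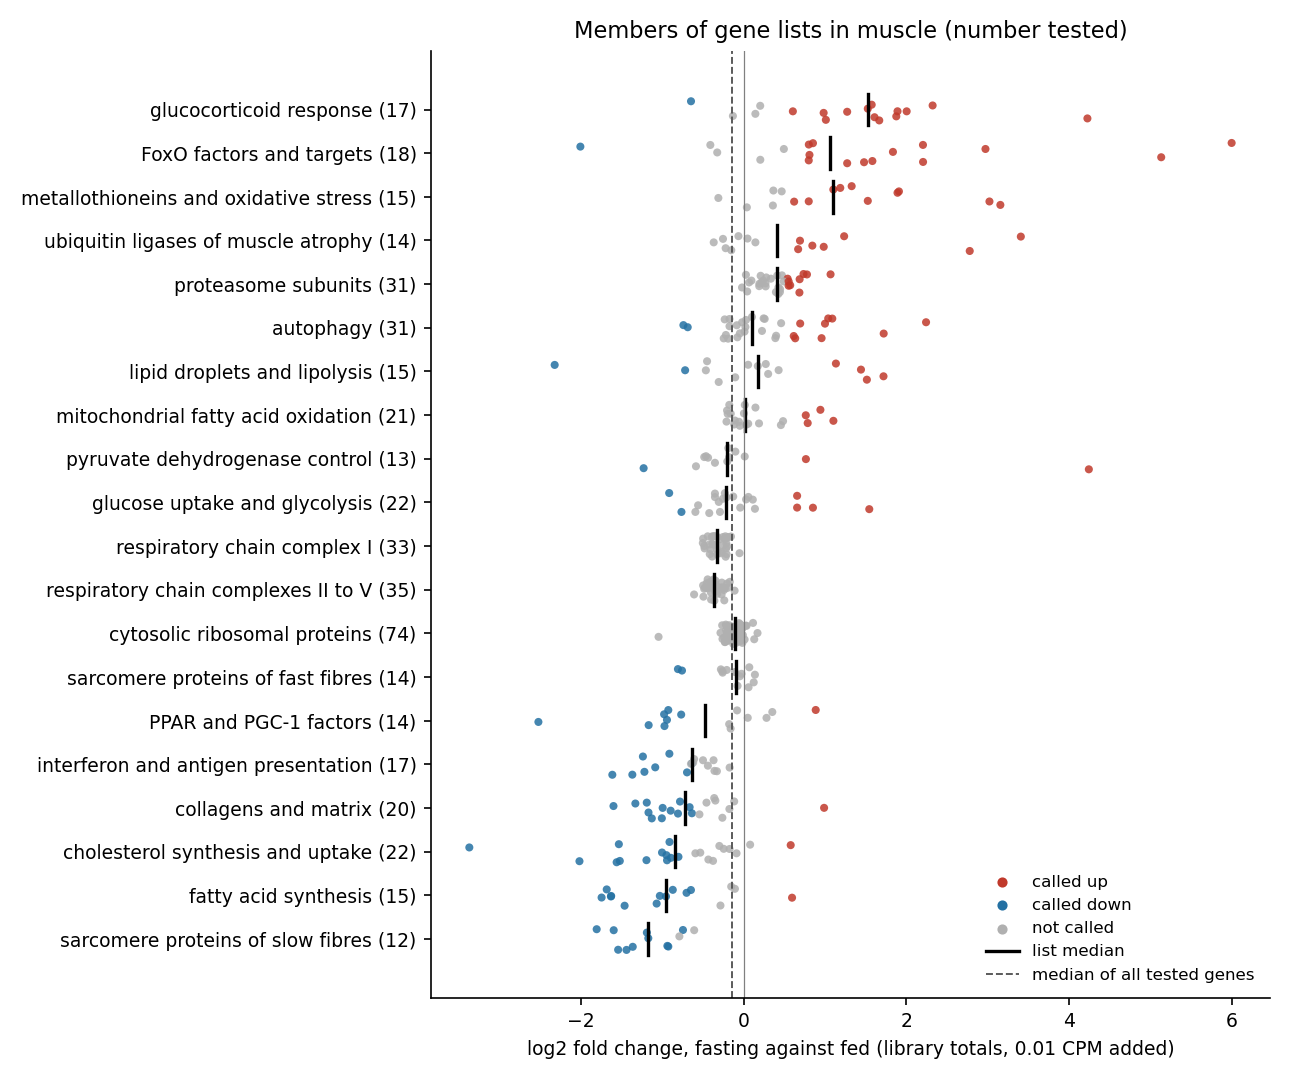
Log2 fold change of each tested member of 20 gene lists in muscle, 1 point per gene, coloured by call, with a black bar at the list median and a dashed line at -0.14, the median of all tested genes. Glucocorticoid response, FoxO and oxidative stress genes lie mostly right of the line, respiratory chain and ribosomal protein genes form tight groups near it, and slow-fibre and lipid synthesis genes lie to its left.

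Of 18 FoxO factors and targets, 13 rose and 1 fell, with a median of 1.06. Foxo1 and Foxo3 themselves rose (17.1 to 61.1 CPM and 37.8 to 113 CPM), Foxo4 measured 50.6 to 58.3 CPM, and Foxo6 fell (6.40 to 1.58 CPM, -2.01). Besides Depp1, Ddit4 and Sesn1, the risen targets were Eif4ebp1 (2.21), the brake on cap-dependent translation, Gadd45a (2.20), Cdkn1a (1.48), Klf15 (1.27), Pik3ip1 (0.85), Cited2 (0.81), Irs2 (0.80) and Txnip (0.80). Bcl6 and Sesn3 had negative values that did not pass (-0.32 and -0.41).

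Insulin and IGF signalling genes were called both ways, 4 up and 3 down of 20, where 7.80% of all tested genes rose and 10.7% fell. The largest rise was Tbc1d1 (1.61, 72.5 to 221 CPM), which governs the release of glucose transporters to the surface, and the IGF-1 receptor Igf1r rose by 0.93. Igf1, the growth factor, fell by 1.29 (45.5 to 18.7 CPM). The adaptor Grb14, which inhibits the insulin receptor, fell by 1.64, and Igfbp5 fell as described above. Akt1 and Akt2, the central kinases, measured 35.4 to 35.5 CPM and 169.9 to 193 CPM. In the mTOR list 3 of 16 rose, Sesn1, Eif4ebp1 and the arginine sensor Castor1 (1.12), and 1 fell, the cap-binding factor Eif4e (-0.65), while Mtor itself was at 0.17. Eif4e was not called with DESeq2 scaling alone (-0.48).

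The myostatin and activin pathway had 2 rises and 2 falls among 14. Smad3, which carries the signal of both ligands to the nucleus, fell by 1.63 (137 to 44.2 CPM), as did the ligand Gdf11 (-0.80), and the receptor Acvr1b (1.14) and the activin subunit Inhbb (1.28, 1.25 to 3.04 CPM) rose. Myostatin, Mstn, measured 101 to 126 CPM, short of the threshold. None of 11 BMP pathway genes was called, and their median of -0.12 turned to 0.01 with TMM factors.

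Glucocorticoid response genes had 13 rises and 1 fall among 17 and the highest median of the 63 lists with a tested member, 1.53. After Cebpd came Glul (199.5 to 999 CPM, 2.32), which exports nitrogen as glutamine, and the receptor chaperone Fkbp5 (36.1 to 145 CPM, 2.0). Mt2 (1.89), Cebpb (1.88), Per1 (1.67), Zbtb16 (1.61) and Tsc22d3, or GILZ (1.57), followed. The fall was Dusp1 (-0.65), a call lost with DESeq2 scaling alone (-0.48). The receptor gene Nr3c1 measured 159.7 to 146 CPM. Klf15 stands in this list and in the FoxO list, and Mt1 and Mt2 also among the oxidative stress genes, so these lists are not independent counts.

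Metal and oxidative stress genes held 10 rises and 0 falls among 15 (median 1.10). Besides the arrestin genes and Txnip, the rises included Srxn1 (1.91), Mt2 (1.89) and Mt1 (1.53), which bind zinc, Gclm (1.33) for glutathione synthesis, catalase (1.19) and Hmox1 (1.10). Sod2 and Nqo1 did not pass (-0.31 and 0.04).

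The clock genes split into 6 risen and 4 fallen of 19. Among them Per1 (1.67), Cry2 (1.52), Per2 (0.88), Rora (0.77) and Nfil3 (0.68) rose, and Dbp (-2.31), Bhlhe40 (-1.96), Bhlhe41 (-1.30) and Nr1d1 (-0.92) fell. The core activators Arntl and Clock were at -0.12 and -0.45. Immediate early genes also divided, with 6 up and 4 down of 15: Maff (1.92), Btg2 (1.75), Myc (1.30), Zfp36 (1.25), Jun (1.21) and Junb (1.16) rose, and Fosb (-2.20, counting SE 0.54), Egr1 (-2.07), Fos (-0.79) and Nr4a1 (-0.76) fell. Per the study's methods tissues were collected at the same time of day in both groups, so a shift of phase and a change of level cannot be told apart.

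Of 13 genes of pyruvate dehydrogenase control 2 rose and 1 fell. Pdk4 rose, the phosphatase Pdp1 that reverses it fell by 1.23 (117 to 50.04 CPM), and the phosphatase Pdp2 rose by 0.77 (7.39 to 12.6 CPM). The other 10 members, the kinases Pdk1 (-0.46) and Pdk3 (-0.59) and the subunit Dlat (-0.48) among them, were not called, with Pdk2 at 251 to 234 CPM and the catalytic subunit Pdha1 at 616 to 545 CPM. By TPM rank Pdk2 went from 332 to 345 and Pdk4, as given above, from 594 to 28, so the order of the kinases was reversed.

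Genes that bring fatty acids into the cell had 5 rises and 1 fall among 15. Angptl4, a secreted inhibitor of lipoprotein lipase, rose by 2.53 (4.69 to 27.2 CPM), and the carriers Cd36, Slc27a1 and Vldlr and the capillary anchor Gpihbp1 rose by 0.62, 0.64, 0.61 and 0.58. Lpl, the lipase itself, measured 348 to 327 CPM, and Fabp5 fell by 0.95. Of 21 genes of mitochondrial fatty acid oxidation, 4 rose and 0 fell, with a median of 0.01. They were Mlycd (1.10), which removes malonyl-CoA, Eci2 (0.94), Cpt1a (0.79) and Acacb (0.76), which makes malonyl-CoA. The core enzymes had small differences, as in Hadha (295 to 298 CPM), Acadvl (239 to 249 CPM) and Acadm (246 to 214 CPM).

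Thioesterases gave 2 rises, Acot1 (3.60, counting SE 0.45, 0.457 to 5.66 CPM) and Acot2, and 1 fall, Acot11 (-1.74), among 8. Acot1 and Acot2 are near-identical neighbours, so their split is uncertain. At the lipid droplet, Plin5 (1.72, 9.59 to 31.6 CPM), Plin4 (1.51, 304 to 869.5 CPM), the lipase Pnpla2 (1.44, 87.9 to 239 CPM) and Lpin1 (1.13, 470.4 to 1033 CPM) rose. G0s2, the protein inhibitor of that lipase, fell by 2.32 (12.2 to 2.42 CPM), and Agpat2 by 0.72. The lipase and its inhibitor thus changed in opposite directions in these libraries.

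Uncoupling proteins and related carriers had 3 rises among 6, Ucp3 (2.64, 46.2 to 288 CPM), Ucp2 (1.54) and the ATP-magnesium carrier Slc25a25 (0.84). The main adenine nucleotide carrier Slc25a4 measured 2699 to 2208 CPM. For ketone body use the key transferase Oxct1 fell by 0.70 (389 to 239.6 CPM) and Bdh1 by 0.74, and 6 of 9 were not called.

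Glycolysis genes were mostly uncalled, with 4 rises and 2 falls among 22 and a median of -0.22 (-0.09 with TMM factors). Fbp2, the muscle fructose bisphosphatase, rose by 1.54 (33.1 to 96.5 CPM), as did Pfkfb3 (0.85), Pfkfb4 (0.66) and Slc2a3 (0.66). Pgam2 and Ldhb fell by 0.76 and 0.92. Aldoa, Pfkm and Pkm, at 12150.5 to 12405 CPM, 2967 to 3267 CPM and 2713 to 2482 CPM, were not called, nor were Hk2 (-0.56) and the insulin-sensitive transporter Slc2a4 (-0.35). Glycogen genes gave 1 rise (Gaa) and 2 falls, Stbd1 (-1.04) and Ppp1r3b (-1.26), among 16. Their median of -0.01 became 0.13 with TMM factors, and glycogen phosphorylase, Pygm, measured 7426 to 8237 CPM.

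Genes of lipid synthesis were mostly lower in fasting muscle. Of 15 fatty acid synthesis genes 11 fell and 1 rose, with a median of -0.95. Elovl6 (-1.75), Fasn (-1.63, 113 to 36.4 CPM), Scd2 (-1.63), Scd1 (-1.03, 272 to 133 CPM) and Acaca (-0.95) fell together with their activators Srebf1 (-1.46) and Mlxipl (-0.87). Mlxip, the glucose sensor related to Mlxipl, was the rise (0.60). Of 22 cholesterol genes 12 fell and 1 rose (median -0.85). Sqle fell by 3.37 (counting SE 0.42, 4.44 to 0.420 CPM), and Msmo1 and Dhcr7 by 1.53 and 1.52. The rise was Fdft1 (0.58), whose exons overlap those of Ctsb on the opposite strand.

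Adipocyte markers had 9 negative log2 fold changes and 1 positive one. Of 10 markers 5 fell and 0 rose (median -0.80): Plin1 (11.5 to 3.33 CPM), Retn (3.28 to 1.10 CPM), Lep (3.95 to 1.45 CPM), Adipoq (16.1 to 6.79 CPM) and Cfd (56.4 to 28.5 CPM). The other 5 were Fabp4 (109.6 to 132 CPM), Car3 (1889 to 1265 CPM), which muscle fibres also make, Pck1 (18.0 to 14.7 CPM), Cidec (11.3 to 9.21 CPM) and Adrb3 (1.79 to 1.16 CPM). The sum over the list was 2121 CPM in the fed and 1463 CPM in the fasting library. Car3 alone gave most of both sums, and no marker was at 0. The part of adipocytes in the fall of lipid synthesis genes was not tested. In a bulk sample, fewer cells of a type and less RNA per cell cannot be told apart.

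PPAR and PGC-1 factors, which run the oxidative programme, had 7 falls and 1 rise among 14 (median -0.47). Ppargc1b fell most, Ppargc1a, its better-known relative, by 0.98 (47.6 to 24.1 CPM), and Ppara, the fatty acid receptor, by 0.97 (12.1 to 6.17 CPM). The orphan receptors Esrrg (-1.17), Esrrb (-0.93) and Esrra (-0.77) and the retinoid receptor Rxrg (-0.94) fell as well. The corepressor Nrip1 rose by 0.89 (51.8 to 95.6 CPM), and Ppard, another fatty acid receptor, measured 16.2 to 19.7 CPM. Pdk4, Ucp3, Angptl4 and Plin5, known targets of PPAR receptors, rose in the same comparison, as described above. They were picked from other lists, and PPAR targets were not drawn up as a list, so these 4 do not stand for the group. The 21 genes of mitochondrial fatty acid oxidation had 4 rises and a median of 0.01.

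No gene of the respiratory chain was called. The 33 genes of complex I had log2 fold changes from -0.50 to -0.05 and a median of -0.33 (-0.19 with TMM factors). The 35 genes of complexes II to V ranged from -0.61 to -0.11 with a median of -0.36 (-0.22). Every one of these 68 values was below 0, as was the median of all tested genes (-0.14). With library totals alone 1 gene of each of these lists fell. The tricarboxylic acid cycle had no call among 15 either (median -0.22, -0.09 with TMM factors). RNAs of the mitochondrial genome could not be compared, since all 37 of its genes had 0 counts in both libraries.

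Sarcomere genes of slow fibres fell and most of those of fast fibres were not called. Of 12 slow-fibre genes 10 fell and 0 rose (median -1.18). Tnni1 (11.7 to 3.33 CPM, -1.81), Tnnt1 (26.6 to 8.79 CPM, -1.60) and Tnnc1 (14.5 to 6.37 CPM, -1.19) are the slow troponins, and Myh7 (106 to 36.5 CPM, -1.54) is the slow myosin heavy chain. Myl3 (-1.44), Myl2 (-1.17), Casq2 (-1.36), Tpm3 (-0.94), Myoz2 (-0.93) and the slow calcium pump Atp2a2 (-0.75) fell with them. Myoglobin, Mb, and Myh7b were lower without a call (-0.61 and -0.79). The list summed to 1812 CPM in fed and 1067 CPM in fasting muscle. Mb alone, which was not called, gave most of both sums (1213 and 796 CPM).

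Among 14 fast-fibre genes 2 fell, Myh2 (2652 to 1515 CPM, -0.81), the myosin of oxidative fast fibres, and Casq1 (-0.76). Their median was -0.09 on library totals and 0.04 with TMM factors. Myh4 (0.07), Myh1 (-0.05) and the fast calcium pump Atp2a1 (0.14) were not called. The adult myosins therefore lay in the order Myh7, Myh2, Myh1 and Myh4 from the lowest to the highest log2 fold change. These myosins share long stretches of sequence, so reads may have been assigned to the wrong copy or dropped.

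**Figure D4:**
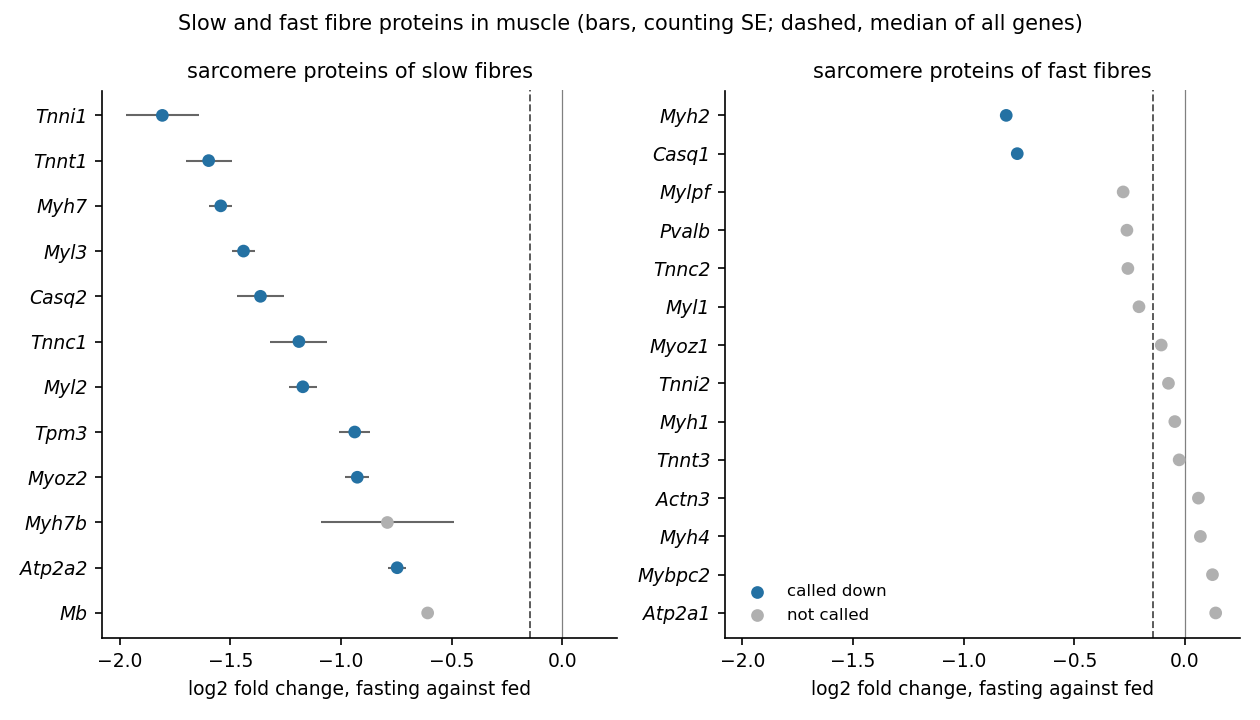
Log2 fold change, fasting against fed, of 12 slow-fibre (left) and 14 fast-fibre (right) sarcomere genes in muscle, with bars of 1 counting SE, a grey line at 0 and a dashed line at the median of all genes, -0.14. All 12 slow-fibre genes lie left of both lines, while 12 of the 14 fast-fibre genes lie between -0.28 and 0.14.

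Of the cardiomyocyte markers 4 were measured and 2 fell, Myh6 (23.6 to 14.7 CPM) and Tnni3 (3.49 to 1.97 CPM). Myl7 was at 0 counts, and Actc1 and Tnnt2 measured 224 to 210.4 CPM and 5.07 to 3.62 CPM. Markers of heart and of slow fibres overlap, since Myh7, Myl2, Myl3 and Tnnc1 are made in both. The part of the fibre mix in the fall of PGC-1 and PPAR factors was not tested, and a change within fibres and a change in the mix of fibres cannot be told apart with 1 library per group.

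Giant and shared sarcomere proteins had a median of 0.00 on library totals and 0.13 with TMM factors, with 3 rises and 1 fall among 25. Lmod2, which lengthens thin filaments, rose by 1.40 (41.7 to 109.9 CPM) while its relative Lmod3 fell by 0.79 (89.9 to 52.0 CPM). Flnc (0.62) and Ankrd2 (0.60) also rose. In excitation-contraction coupling 3 of 15 fell, Jph2 (-1.02), which anchors the junction of membranes, the chloride channel Clcn1 (-0.87) and Stac3 (-0.65). The ryanodine receptor Ryr1 was not called (5833 to 6631 CPM). At the neuromuscular junction Musk (0.63) and Runx1 (0.74) rose and Lrp4 (-1.05) and Chrne (-0.64) fell, 10 of 14 staying uncalled. Stac3 (-0.48) and Chrne (-0.47) were not called with DESeq2 scaling alone, and on library totals alone 7 of the junction genes fell.

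Myogenic factors had 1 rise and 4 falls among 15. Myf6, or MRF4, rose by 1.01 (64.6 to 130.2 CPM), and Myod1 fell by 2.35 (14.4 to 2.81 CPM). Tead1 (-0.94), Mef2c (-0.66) and Vgll2 (-0.64) fell too, and Myog measured 4.15 to 5.46 CPM. Among satellite cell markers 1 of 6 fell, Pax7 (3.57 to 2.10 CPM), and 0 rose. The calls of Pax7 (-0.59), Mef2c (-0.49) and Vgll2 (-0.47) were lost with DESeq2 scaling alone. Of 7 measured cell division genes none was called.

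Collagen and matrix genes fell in 12 and rose in 1 of 20 cases (median -0.72). Col3a1 went from 466 to 204 CPM (-1.19), Col1a1 from 379 to 216 CPM (-0.81), Col15a1 of the fibre basement membrane from 68.9 to 22.7 CPM (-1.60), and the collagen chaperone Serpinh1 from 60.5 to 24.05 CPM (-1.33). Lox, which crosslinks collagen, rose by 0.99, and Col4a1 and Col4a2 were not called (-0.18 and -0.26). Of 8 fibroblast markers 3 fell, and these are the 3 collagens that both lists hold, of which Col1a2 (-0.64) was not called with DESeq2 scaling alone (-0.47). The 5 fibroblast markers that are not collagens were not called, with Dcn at 466 to 531 CPM, Pdgfra at 63.2 to 64.4 CPM, Lum at 21.0 to 13.9 CPM, Dpt at 46.5 to 37.2 CPM and Fbln1 at 9.76 to 9.02 CPM. The fibroblast list summed to 1899 CPM in fed and 1365 CPM in fasting muscle with no marker at 0. This fall of the sum lay in the 3 collagens, as the other 5 markers together were not lower. Dcn gave most of the sum of those 5. Dcn and Pdgfra had positive log2 fold changes (0.19 and 0.03), and Lum, Dpt and Fbln1 negative ones (-0.59, -0.32 and -0.11). The tendon markers Scx (-1.71) and Tnmd (-0.94) fell among 6, with sums of 242 and 201 CPM.

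Secreted factors had 1 rise, Angptl4, and 4 falls among 10 measured. Vegfa, the angiogenic factor, fell by 1.51 (184 to 64.7 CPM), together with Apln (-2.04, counting SE 0.41), Fndc5 (-0.84) and Il15 (-0.81). Kdr, the receptor of Vegfa on endothelial cells, fell by 1.17 (63.3 to 28.1 CPM) and was the 1 endothelial marker of 8 called, while Pecam1 and Cdh5 measured 56.0 to 65.1 CPM and 70.6 to 63.0 CPM. Interferon and antigen presentation genes had 8 falls and 0 rises among 17 (median -0.64), with Ifit3 (-1.61), Gbp3 (-1.37) and Iigp1 (-1.24) lowest, all at under 20 CPM. Macrophage markers had no call among 7 and sums of 112 and 96.3 CPM.

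In amino acid metabolism, Glul, Gpt2 (0.65) and the transporter chain Slc3a2 (0.63) rose and Slc1a5 fell (-0.66) among 14 genes of glutamine and transamination, the fall being lost with DESeq2 scaling alone (-0.49). Breakdown of branched-chain amino acids had 1 rise, its regulator Klf15, and 1 fall, the activating phosphatase Ppm1k (-0.84), among 16. Nmrk2 was the 1 call among 13 NAD genes, and Nampt measured 178 to 161 CPM. In polyamine synthesis the first enzyme Odc1 rose by 1.94 (135 to 518 CPM) and Srm by 0.51, the latter not called with 1 CPM added (0.43), while Amd1, which makes the second substrate, fell by 1.22 (1085 to 466 CPM) with its near-identical copy Amd2 (-1.03). Of 13 creatine, adenylate and carnosine genes Ampd3 rose (0.61) and Slc6a8 (-0.74), Gamt (-0.69) and Ckb (-0.68) fell.

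Of 14 ATF4 response genes 1 rose, Chac1 (2.17, 48.6 to 219 CPM), which splits glutathione, and 1 fell, Ddit3 (-2.06). Atf4 and Asns measured 140.3 to 191 CPM and 0.914 to 1.26 CPM. Among 16 chaperones of the endoplasmic reticulum Dnajb9 (1.05) and Herpud1 (0.62) rose and Sdf2l1 fell (-1.0), and among 17 heat shock and cold-inducible genes Cryab (-0.75) and Hspa1a (-0.78) fell. The calls of Sdf2l1 (-0.83) and Hspa1a (-0.61) were lost with DESeq2 scaling alone. None of 74 cytosolic ribosomal protein genes was called (median -0.11, 0.03 with TMM factors). Ribosome biogenesis had 2 rises among 20, Gnl3 (1.17) and Rrp12 (0.55), and 7 with TMM factors alone. Of 11 noncoding host RNAs Snhg1 (1.32), Snhg5 (1.02), Snhg12 (0.92) and Gas5 (0.83) rose and the imprinted Rian (-1.49) and H19 (-0.83) fell.

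The markers of the remaining cell types gave few calls. Of 6 smooth muscle and pericyte markers Acta2 fell (-0.73), of 7 Schwann cell markers none was called, and of 4 brown adipocyte markers Ucp1 rose (1.45 to 2.46 CPM), though not with 1 CPM added (0.49), and Ppargc1a fell. None of 5 erythroid markers was called, with sums of 138 and 108 CPM. Neutrophil, T cell and keratinocyte markers did not reach 1 CPM, and Krt5, Krt14, Krt1, Lor and Ngp were at 0 counts. Of 5 B cell markers Ighm alone was measured (47.7 to 37.8 CPM). Of the 10 fibre markers 1 was called, Myh2.

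The other 7 tissue pairs served as background, with 1 CPM added to both libraries so that low genes do not give large folds. On this scale Fbxo32 was at 2.78 in muscle and at 0.08 to 1.15 in the other tissues, Trim63 at 3.40 and -0.50 to 1.86, and Sesn1 at 2.91 and -0.36 to 1.13. Heart, the other striated muscle, had 1.15 for Fbxo32, 0.90 for Trim63 and 4.08 for Pdk4, which in muscle was at 4.24. The direction of Pdk4, Depp1, Ddit4, Cebpd, Acot2, AC154912.3 and Fbxo32 was upward in all 7 other tissues. Nmrk2 was at -5.44 in muscle, -1.57 in heart and -1.57 to 0.15 over the other 7. Ppargc1a was higher in fasting in all 7 other tissues (0.03 to 1.15) and lower in muscle (-0.95). Myh7 was at -1.52 in muscle and 1.99 in heart.

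**Figure D5:**
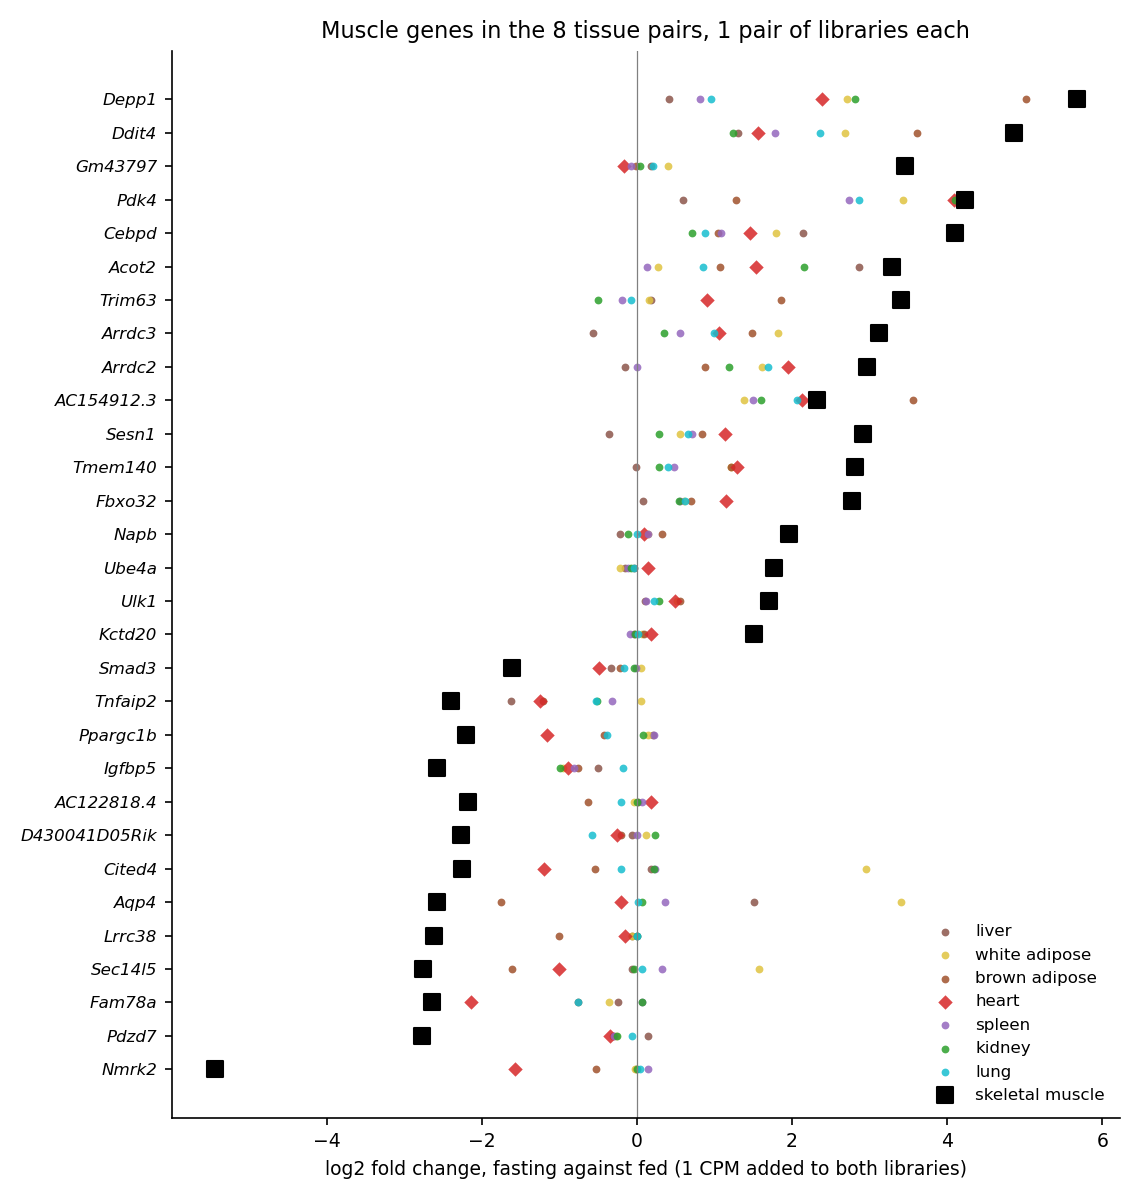
Log2 fold change, fasting against fed, with 1 CPM added, for 30 genes in muscle (black squares), heart (red diamonds) and the other 6 tissues (circles), each from 1 pair of libraries. Napb, Ube4a and Kctd20 lie between -0.22 and 0.33 in the other tissues and above 1.5 in muscle, whereas for Pdk4 heart and kidney lie beside muscle.

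Whether muscle departed from the other tissues was tested by the interaction of muscle and fasting in edgeR's quasi-likelihood model of all 16 libraries, in which the spread is that of the fasting difference among the other 7 tissues (6 residual degrees of freedom). It passed an adjusted p under 0.05 for 3 of 23580 genes (0.0127%), all higher in muscle. Napb (chr2:148693985-148732467), which helps to recycle the vesicle fusion machinery, went from 26.2 to 105 CPM, with an interaction of 1.99 on the log2 scale. Ube4a (chr9:44923127-44965600) had an interaction of 1.91, and Kctd20 (chr17:28951950-28969549), a BTB domain gene at 49.4 to 143 CPM, one of 1.54. The Benjamini-Hochberg adjusted p in edgeR was 0.047 for each, and over the 12 settings tried it ranged up to 0.149 and down to 3.39e-14 for Napb, 9.81e-17 for Ube4a and 1.85e-19 for Kctd20 with DESeq2. No gene passed in the other direction, where 654 had an unadjusted p under 0.05 against 674 upward. Without the brown adipose, heart, kidney, lung or spleen pair no gene passed, and without liver or white adipose 7 and 9 genes passed upward. With DESeq2's Wald test 97 genes passed upward and 34 downward. Fbxo32 (interaction 2.19, adjusted p = 0.088), Ulk1 (1.44, 0.082) and Smad3 (-1.41, 0.082) missed the threshold in the edgeR quasi-likelihood test.

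The fasting difference of muscle itself, tested in the same edgeR model with the spread of the other tissues, passed an adjusted p under 0.05 for 26 of 23580 genes (0.110%), 18 up and 8 down. Of these, 25 were also called in the muscle pair. They include Napb, Ube4a, Kctd20, Ulk1, Klhl38, Gm38034, Fbxo32 and Mrtfa (adjusted p = 0.015 in edgeR for each). Cebpd, Cep85l, Smad3, Igfbp5, Nmrk2, Calm2, Zfyve1, Sesn1 and Eda2r also passed (edgeR adjusted p from 0.023 to 0.030). Eda2r, a receptor of the tumour necrosis factor family named after its values were seen, rose from 30.4 to 152 CPM, and Mrtfa, a coactivator of actin-responsive genes, fell from 39.5 to 8.57 CPM. Calm2, 1 of the calmodulin genes, fell from 164 to 46.7 CPM. Trim63, Pdk4, Depp1 and Ddit4 did not pass this test (adjusted p of 0.13, 0.27, 0.19 and 0.050 in edgeR).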

How the data were processed

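Short-read RNA was sequenced from pools of 3 mice per tissue and treatment. Per the labels and the study's methods, the authors used fastp 0.23.2 for trimming, FastQC 0.11.8 for quality and HISAT2 2.2.1.0 for alignment (genome build GRCm38), and made the deposited counts per gene with featureCounts of Subread 2.0 and GENCODE vM24. The treatment of strand, multimapped reads and read pairs in counting is not given in the sources used here. The table also holds the deposited gene length per row, in bases, used here for TPM ranks. Ensembl IDs were paired with symbols of GENCODE vM21, 54487 of 55385 with their version and 55144 without it. Every column of per-sample values was mapped to a sample by its name.

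CPM and TMM factors (edgeR 4.0.16 in R 4.3.3) were computed from the counts. Genes with at least 1 CPM in a muscle library were called by the rule given in the report, with Python 3.11.15 and scipy 1.17.1. With 1 library per group no p-value across genes is printed for the pair, and the exact Poisson intervals and counting standard errors hold counting error only. The interaction of muscle and fasting was fitted by edgeR's quasi-likelihood test on all 16 libraries with TMM factors and Benjamini-Hochberg adjustment. All tissues came from the same animals, so the tissues are not independent samples of fasting, and p-values measure the spread among these libraries.

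The tests were checked on simulated counts. For the muscle pair this check does not cover variation between pools, since Fisher's test allows for counting error only. In the muscle pair 196 of 200 changed genes were recovered, with 23 false calls among 13263 genes. Library totals stood for both scalings in this check, so the TMM condition of the rule was not exercised. For the interaction 67 of 100 genes changed 4-fold and 19 of 100 changed 2.5-fold were recovered, with 2 false calls among 23274 genes. In that simulation no other tissue responded to fasting, and the changed genes were drawn from those with more counts in muscle. In the real data the spread is that of the fasting difference among the other tissues. The simulated rates therefore do not carry over to it.

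The comparison, the gene lists and the marker lists were chosen with earlier results of these data known. The naming rule selects the 12 called genes with the largest rise and the 12 with the largest fall among genes with at least 10 CPM. From each list of 12 or fewer it selects every member. In longer lists it selects the 2 members highest by CPM, the 4 called ones with the largest change and those called against the list's median, and last the genes past the interaction test. Not every selected gene is described, above all in marker lists with few calls. Further list members, and Klhl38, Zfyve1, Gm38034, Mrtfa, Cep85l, Calm2 and Eda2r, were named after their values were seen. Some members count toward their list but are not reported here. Alternatives were other scalings, thresholds, filters, pseudocounts and assumed variation, DESeq2 1.42.0 and leaving out each other tissue.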

Additional observations from a re-analysis of the deposited data

Results flagged for a closer look

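A difference between muscle and the other tissues passed the edgeR interaction test for 3 genes, with the values given in the report. The log2 fold change in muscle exceeded that of the other tissues by 1.99 for Napb, 1.91 for Ube4a and 1.54 for Kctd20. No muscle group has the 4 samples needed to look for a sample far from the others.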

How the results depend on the processing

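The main counts were 1068 risen and 1469 fallen genes, and 3 and 0 genes for the interaction above and below the other tissues. The risen count was 1607 with TMM factors alone, 1766 with DESeq2's size factors alone, 387 at a log2 fold change above 1, 361 and 49 where variation between pools was assumed (coefficients 0.2 and 0.4), and 18 with the spread of the other tissues. The fallen count was 2241 on library totals alone, 544 above 1 on the log2 scale, 957 at a minimum of 5 CPM, and 295, 28 and 8 in those 3 tests with an allowance for variation. Other settings kept both counts within 1.5 times. The interaction above gave 5 genes on library totals, 9 without a filter, 97 with DESeq2's Wald test, and 0 to 9 leaving out each other tissue. Below, it gave 2 on library totals, 2 without a filter, 1 with a robust fit, 34 with DESeq2, and 0 to 2 leaving out each other tissue (1 without liver, 2 without white adipose). The cause of these shifts was not tested, except that a higher fold or CPM minimum removes genes by construction.

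Of the 372 genes the naming rule selects, 27 changed sign after TMM scaling and 35 by the size factors of DESeq2, none of them called. With DESeq2's size factors 354 kept their side of the threshold, 7 passed it newly and 11 no longer passed. With DESeq2's size factors alone more members rose in insulin and IGF signalling (7), the mTOR list (5), myogenic factors (4), ATF4 response (3), heat shock genes (3), shared sarcomere proteins (5) and ribosome biogenesis (7), and fewer myogenic factors (2), excitation-contraction coupling (2) and neuromuscular junction genes (1) fell. On library totals alone more members fell at the neuromuscular junction (7), in endoplasmic reticulum chaperones (4), glycolysis (4), thioesterases (3) and NAD genes (3). Of 63 list medians 10 changed sign with another scaling. No paired analysis was possible because muscle has 1 library per treatment, so no replicate number can pair muscle samples. Tissue was a term of the interaction model throughout. Depth limits the precision of large changes that rest on few counts, with counting standard errors of 0.45 for Acot1, 0.42 for Sqle, 0.54 for Fosb and 0.41 for Apln, and under 10 CPM in both libraries lay 372 of the risen and 816 of the fallen genes.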
